A study of Mus musculus with 5 samples.

Results

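The 72 genes described here encode ion channels, ionotropic receptors and their close relatives. They are the symbols, among the 4743 genes listed for each sample, that belong to the potassium (Kcn), sodium (Scn), chloride (Clcn, Clca), anoctamin (Ano), transient receptor potential (Trpc, Trpv), GABA-A (Gabr), glutamate (Gria, Grik, Grin), nicotinic acetylcholine (Chrn), purinergic (P2rx, P2ry) and acid-sensing (Asic) families. The Trpm, Hcn, Piezo, Cnga and glycine receptor families were searched for too and gave no member. Calcium channels of the Cacn family and ryanodine receptors were not counted as members. Each gene was taken by its name, although the members and use groups were chosen with earlier results of these data known. The genes were grouped by their best known use, with 43 neuronal, 7 muscle, 13 epithelial and 9 broad or blood members. This grouping says where a gene is known to work, not which cells of the sample held its RNA.

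RNA was sequenced at E15.5 from mouse forelimb muscle (strain C57BL/6), in 3 Noggin-deficient and 2 wild type samples. Noggin is a secreted antagonist of bone morphogenetic proteins. The sources used here name no allele, and do not say whether a sample was a single embryo or a pool, so the p-values rest on the spread among these 5 libraries alone, and that spread may be technical. The values are decimals in a unit that the authors did not name, so they are called listed values here, and levels are compared between samples of a gene and not between genes.

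Channels of the muscle membrane carry the signal from nerve to contraction. Acetylcholine opens the nicotinic receptor, sodium channels carry the action potential along the fibre, and chloride and inward rectifier potassium channels return the membrane to rest. Neurons use a wider set of voltage-gated and ligand-gated channels, autonomic ganglia signal through nicotinic receptors of other subunits, and epithelia use chloride and potassium channels to move salt and water.

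Nog, the gene of Noggin, was listed at 0.49, 0.42 and 0.42 in the Noggin-deficient samples, against 2 and 1.99 in the wild type samples. The sums of all listed values ran from 92210 to 93695 in the Noggin-deficient and from 100792 to 102783 in the wild type libraries, and the read depth is unknown. Of 13 skeletal muscle fibre markers, 11 were listed, with summed values from 1930 to 2036 in the Noggin-deficient and from 2917 to 2961 in the wild type samples, and none was at 0. Markers of other tissues were listed too. All 6 liver markers were listed, summing to 106 in Noggin-deficient samples and to 8.64 to 8.79 in wild type samples. The part of liver RNA in the results was not tested. Values of other cell type markers are given below with the groups of genes, whichever way they moved.

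Of the 72 members, 44 reached a listed value of 0.5 in 2 or more libraries, and 28 lay below that minimum. The 44 were tested with limma on log2(value + 0.25). Clca3a2, Clca2_copy2, Clcn1, Kcnj3 and Kcnk7 reached the minimum only through the wild type samples, where they were high. Grik4, Kcna4 and Scn8a reached it only through the Noggin-deficient samples, where they were high. Grin3a, Kcnn1 and P2ry13 reached 0.5 in only 1 wild type library, and Kcna1 in only 1 Noggin-deficient library. They too passed through the group where they were high. The minimum favoured the direction of these changes, so the calls and ranks of these genes are no support for it. Of the 44, 42 were called at a Benjamini-Hochberg adjusted p under 0.05, against 98.0% of all 3913 genes tested. Of the members tested 15 (34.1%) rose and 27 (61.4%) fell, against 37.9% and 60.1% of all genes tested, so these shares were close to the background. The listed genes thus appear to have been chosen for a difference between these samples before deposit, and a call alone is no finding about a gene. The median log2 change was -0.33 for the 44 members and -0.28 for all tested genes. The groups did not overlap for 68 of the 72 members (94.4%), against 98.2% of all listed genes. On the log2(value + 0.25) scale, which shrinks the change of low genes, 3 tested members (6.82%) changed more than 2-fold, against 10.9% of all genes tested. These were Kcna1, Ano9 and Clca3a2, all lower in the Noggin-deficient samples, against 3.73% of all genes over 2-fold higher and 7.16% over 2-fold lower on that scale. By the ratio of the listed means, 3 called members were over 2-fold higher in the Noggin-deficient samples (Gabrp, Kcne3 and Kcnn4), against 6.01% of all genes tested, and 6 were over 2-fold lower (Ano9, Clca2_copy2, Clca3a2, Kcna1, Kcnj3 and Kcnk7), against 9.02%. Without wild type replicate 1 or 2 fewer members were called lower, with 5 under the minimum for testing in both cases. The shares over all genes without these libraries are not given, so this drop is no finding about the members.

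How many members were called lower depended on the scaling. Median-of-ratios scaling divides each library by its typical ratio to the others and moved the median of all genes by 0.26, and with it 15 members were called higher and 14 lower, against 38.0% and 32.5% of all genes. With a trend on transcript length taken out, 15 members were called higher and 17 lower, against 39.0% and 38.4% of all genes. In a test against a 1.5-fold change, 2 members passed as higher and 4 as lower, against 4.22% and 10.3% of all genes. Every member called under these settings kept its direction. The median-of-ratios scaling and the length correction were computed from the listed genes alone, and bring the median of all tested genes to -0.03 and -0.02. They assume that most genes do not change, which cannot be taken for granted in a list that appears chosen for a difference. A call held or lost under them thus shows dependence on the setting and does not decide whether a change is real.

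**Figure D1:**
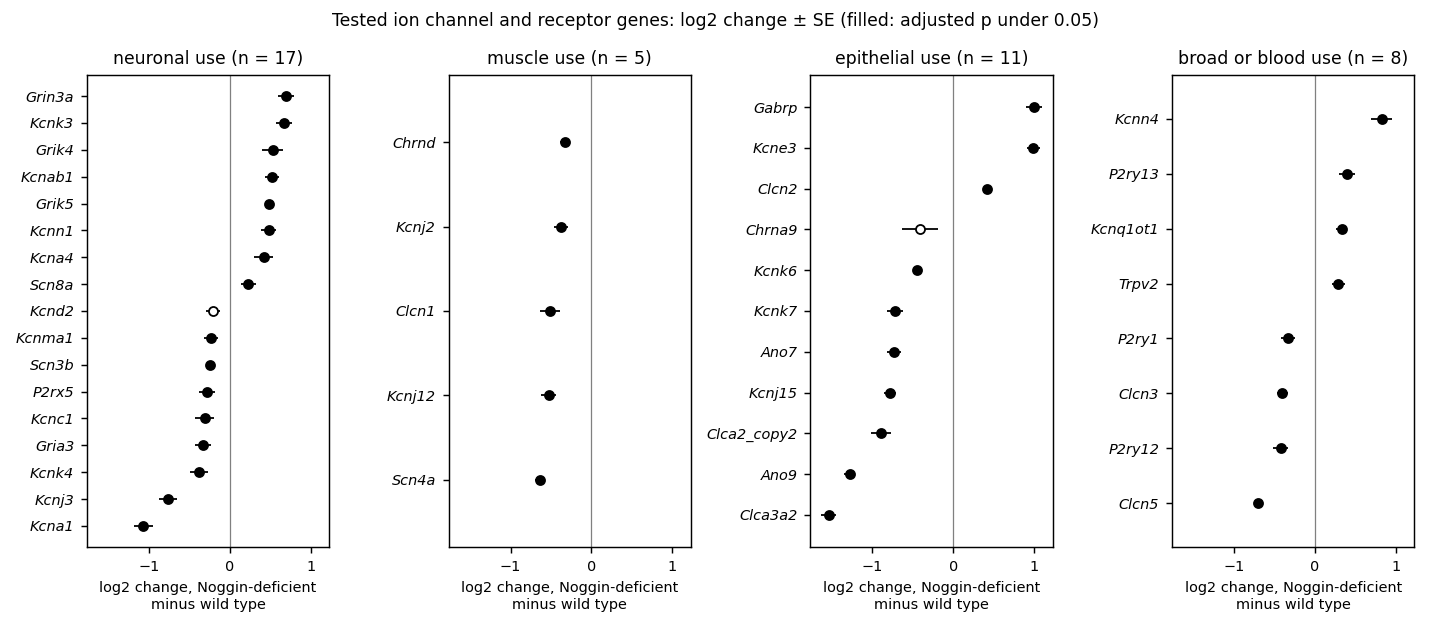
Log2 change (Noggin-deficient minus wild type, on log2(value + 0.25)) of 41 tested members with its SE, split by known use. Filled points passed an adjusted p of 0.05. All 5 muscle members lie below 0, the 11 epithelial members run from -1.54 to 1.0 and the 17 neuronal members from -1.07 to 0.70.

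The tested muscle channels were lower in the Noggin-deficient samples. All 5 tested members fell, where 60.1% of all genes tested did, and their median log2 change was -0.51, against -0.28 over all genes tested. Clcn1 reached the minimum for testing only in the wild type samples, and the use groups were chosen with earlier results known. The count is thus no independent support for a fall of muscle channels. Chrnd, the delta subunit of the muscle nicotinic receptor, was listed at 13.56, 12.9 and 12.13 in the Noggin-deficient samples, against 16.83 and 15.59 in the wild type samples (log2 change -0.33, SE 0.054, limma adjusted p = 0.00069). Its groups did not overlap. Under median-of-ratios scaling its change was -0.06 (adjusted p = 0.36), and the call was lost. In bulk tissue, fewer muscle cells and less of an RNA per muscle cell cannot be told apart.

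Scn4a, the main voltage-gated sodium channel of skeletal muscle, had 1.68, 1.68 and 1.76 in the Noggin-deficient samples, against 2.82 and 2.79 in the wild type samples. The groups lay well apart, with a log2 difference of -0.64 (SE 0.064, limma adjusted p = 4.9e-05). The call held under median-of-ratios scaling (-0.40) and with a trend on transcript length taken out (-0.32). Clcn1, the chloride channel that steadies the resting muscle membrane, had 0.49, 0.36 and 0.45 in Noggin-deficient samples, against 0.69 and 0.75 in wild type samples (log2 change -0.51, SE 0.12, limma adjusted p = 0.0039). Every Noggin-deficient value was below both wild type values, and the change was -0.32 under median-of-ratios scaling (adjusted p = 0.044). Exons of Clcn1 share bases with Fam131b on the opposite strand in the GENCODE annotation.

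The inward rectifier potassium channels Kcnj12 and Kcnj2 hold the resting potential of muscle cells, and the human counterpart of Kcnj2 acts before myoblasts fuse. Kcnj12 was listed at 0.61, 0.62 and 0.66 in the Noggin-deficient samples, against 1.06 and 0.98 in the wild type samples (log2 change -0.53, SE 0.091, limma adjusted p = 0.00084). Kcnj2 was listed at 1.93, 1.63 and 1.66 in the Noggin-deficient samples, against 2.27 and 2.39 in the wild type samples (log2 change -0.38, SE 0.086, limma adjusted p = 0.0035). Neither gene's groups overlapped. The fall of Kcnj2 was no longer called under median-of-ratios scaling (-0.13, adjusted p = 0.2) or with length adjusted for (-0.10, adjusted p = 0.29), while that of Kcnj12 was still called (-0.32 and -0.52).

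A pair of muscle members lay under the minimum for testing and were chosen for mention after their values were seen. Scn4b, an auxiliary subunit of sodium channels, was listed at 0.09, 0.06 and 0.05 in Noggin-deficient samples, against 0.45 and 0.47 in wild type samples. Its wild type values were each above all the Noggin-deficient ones. Kcnj5, a subunit of the potassium channel that acetylcholine opens in the heart, was listed at 0.05, 0.02 and 0.01 in Noggin-deficient samples, against 0 in both wild type samples.

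Muscle fibre markers moved the same way. Of the 10 tested, 9 (90%) fell, against 60.1% of all genes tested, and Actn3 rose. Their median log2 change was -0.61, which is close to the -0.51 of the muscle channels. Of the 5 muscle channels, 3 were called lower under median-of-ratios scaling and 4 with length adjusted for, with medians of -0.32 in both cases. Of all genes, 32.5% and 38.4% were called lower under these settings, with medians of -0.03 and -0.02. The part of these fibre markers in the values of the muscle channels was not tested.

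Promoter sequences of members that moved together are given for reference, from RefSeq (GRCm38.p6), each with 250 bases before and 50 after the transcription start, 5′ to 3′ on the gene's strand. Of the 72 members 50 had an entry. Scn4a (chr11:106349341-106349640, minus strand) and Kcnj12 (chr11:61065554-61065853, plus strand) are 2 of the 3 muscle channels whose call held under each scaling. Chrna3 (chr9:55026513-55026812, minus strand) and Chrnb4 (chr9:55048495-55048794, minus strand) are neighbouring genes of the ganglionic nicotinic receptor, described below with the neuronal members. Capitals mark the E-box forms CAGCTG and CACCTG and the GC box GGGCGG, searched on both strands, none of which overlaps another here.
Scn4a: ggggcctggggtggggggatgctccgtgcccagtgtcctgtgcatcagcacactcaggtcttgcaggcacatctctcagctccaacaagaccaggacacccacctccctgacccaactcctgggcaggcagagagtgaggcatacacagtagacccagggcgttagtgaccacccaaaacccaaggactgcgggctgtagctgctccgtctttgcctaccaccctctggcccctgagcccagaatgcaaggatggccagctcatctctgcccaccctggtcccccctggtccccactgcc
Kcnj12: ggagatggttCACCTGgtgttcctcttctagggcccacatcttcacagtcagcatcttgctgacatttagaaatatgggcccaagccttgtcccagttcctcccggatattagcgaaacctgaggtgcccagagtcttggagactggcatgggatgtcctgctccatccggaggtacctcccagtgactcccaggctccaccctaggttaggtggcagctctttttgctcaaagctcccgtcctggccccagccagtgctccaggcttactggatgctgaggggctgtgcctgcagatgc
Chrna3: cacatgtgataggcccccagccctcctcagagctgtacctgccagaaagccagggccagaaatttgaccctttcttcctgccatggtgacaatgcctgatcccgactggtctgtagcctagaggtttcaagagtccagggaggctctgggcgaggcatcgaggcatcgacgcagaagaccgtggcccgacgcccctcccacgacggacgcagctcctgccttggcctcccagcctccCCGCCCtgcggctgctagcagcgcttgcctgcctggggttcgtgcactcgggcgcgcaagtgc
Chrnb4: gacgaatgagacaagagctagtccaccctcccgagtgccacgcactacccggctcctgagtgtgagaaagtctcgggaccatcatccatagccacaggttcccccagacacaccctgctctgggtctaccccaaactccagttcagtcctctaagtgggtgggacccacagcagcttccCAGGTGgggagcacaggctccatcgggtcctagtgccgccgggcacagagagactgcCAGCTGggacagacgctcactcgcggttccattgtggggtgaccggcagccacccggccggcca
Kcnj12 held 1 CACCTG, Chrna3 1 GGGCGG, and Chrnb4 1 CAGCTG and 1 CACCTG, while none of the 3 motifs was in the Scn4a window. Among all 32851 promoters of this length, 16.3% held CAGCTG, 20.2% CACCTG and 35.7% GGGCGG, so such matches are common. They describe the letters and show no binding.

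Neuronal members went both ways. Of 43, 19 were tested, of which 8 rose, 10 fell and Kcnd2, a potassium channel subunit, was not called (-0.21, adjusted p = 0.052). The rises were 42.1% and the falls 52.6% of the tested members, near the 37.9% and 60.1% of all genes tested. The median log2 change was -0.23 over the tested members, turning to 0.05 with length adjusted for and standing at 0.00 under median-of-ratios scaling. Neuronal members had long transcripts, with a median of 5152 bases against 3438.5 for all listed genes. The sign of the group median thus turned with the setting.

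Glutamate receptor subunits made up 3 of the 8 that rose. Grin3a, a subunit of NMDA receptors, was listed at 0.93, 0.91 and 0.89 in the Noggin-deficient samples, against 0.41 and 0.52 in the wild type samples (log2 change 0.70, SE 0.1, limma adjusted p = 0.00037). Grik5, a kainate receptor subunit, was listed at 15.01, 15.33 and 14.77 in the Noggin-deficient samples, against 11.12 and 10.33 in the wild type samples (log2 change 0.48, SE 0.041, limma adjusted p = 2.4e-05). In both genes every Noggin-deficient value lay above every wild type value, and the change of Grik5 was 0.75 under median-of-ratios scaling. Grik4, another kainate subunit, rose by 0.53, and Gria3, of AMPA receptors, had a log2 change of -0.33 that was -0.12 and not called under median-of-ratios scaling. With length adjusted for, the changes of Grin3a, Grik5 and Grik4 were 1.05, 0.66 and 0.82. Grin3a and Grik4 reached the minimum for testing through the Noggin-deficient samples, where they were high.

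Potassium channel genes were among the others that rose. Kcnk3, an acid-sensitive background potassium channel, was listed at 2.06, 1.95 and 1.62 in the Noggin-deficient samples, against 1.05 and 1.12 in the wild type samples (log2 change 0.67, SE 0.1, limma adjusted p = 0.00052). Its groups did not overlap, and the change was 0.89 under median-of-ratios scaling. Kcnn1, a small-conductance calcium-activated potassium channel, rose by 0.48, Kcnab1, a cytoplasmic partner of Shaker-type channels, by 0.52, and Kcna4, a Shaker-type channel, by 0.42. Scn8a, a sodium channel of axon initial segments, was at the edge of the call with a log2 change of 0.23 (limma adjusted p = 0.049), and its call was lost whichever library was left out. The call of Kcna4 was lost without wild type replicate 1, and that of Gria3 without either wild type library.

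Other potassium channel genes fell. Kcna1, a channel of myelinated axons, was listed at 0.51, 0.37 and 0.43 in the Noggin-deficient samples, against 1.13 and 1.24 in the wild type samples, the largest fall among the neuronal members (log2 change -1.07, SE 0.12, limma adjusted p = 7.9e-05). Kcnj3, a subunit of G protein-gated potassium channels of neurons and the heart atrium, was listed at 0.26, 0.23 and 0.23 in the Noggin-deficient samples, against 0.58 and 0.58 in the wild type samples (log2 change -0.76, SE 0.11, limma adjusted p = 0.00028). In both genes every Noggin-deficient value was below the wild type ones. With length adjusted for, Kcna1 and Kcnj3 were still called (-0.89 and -0.50). Kcnj3 reached the minimum for testing only in the wild type samples, and Kcna1 reached it in only 1 Noggin-deficient library.

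Scn3b and P2rx5 had small changes whose call depended on the scaling. Scn3b, an auxiliary sodium channel subunit, was listed at 16.22, 15.92 and 15.55 in the Noggin-deficient samples, against 19.18 and 18.84 in the wild type samples (log2 change -0.25, SE 0.032, limma adjusted p = 0.00017). Under median-of-ratios scaling its change was 0.01 (adjusted p = 0.72). P2rx5, an ATP-gated channel also found in developing skeletal muscle, was listed at 1.67, 1.71 and 2 in the Noggin-deficient samples, against 2.03 and 2.45 in the wild type samples (log2 change -0.28, SE 0.1, limma adjusted p = 0.03). The highest Noggin-deficient and the lowest wild type value of P2rx5 were nearly equal. Under median-of-ratios scaling its change was -0.04 (adjusted p = 0.77). Its call was also lost without wild type replicate 2 (-0.16, adjusted p = 0.22), Noggin-deficient replicate 1 (-0.24, adjusted p = 0.087) or Noggin-deficient replicate 2 (-0.26, adjusted p = 0.08). Other called falls, of the potassium channel genes Kcnc1, Kcnk4 (whose exons share bases with Catsperz on the same strand) and Kcnma1, ran from -0.38 to -0.23, and none of them was called under median-of-ratios scaling. Each also lost its call without at least 1 library (Kcnk4 without wild type replicate 1, Kcnma1 without wild type replicate 2 or Noggin-deficient replicate 1 or 2, Kcnc1 without any but Noggin-deficient replicate 2). With length adjusted for, Kcnc1 and Kcnma1 turned to 0.04 and 0.21 and were not called.

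**Figure D2:**
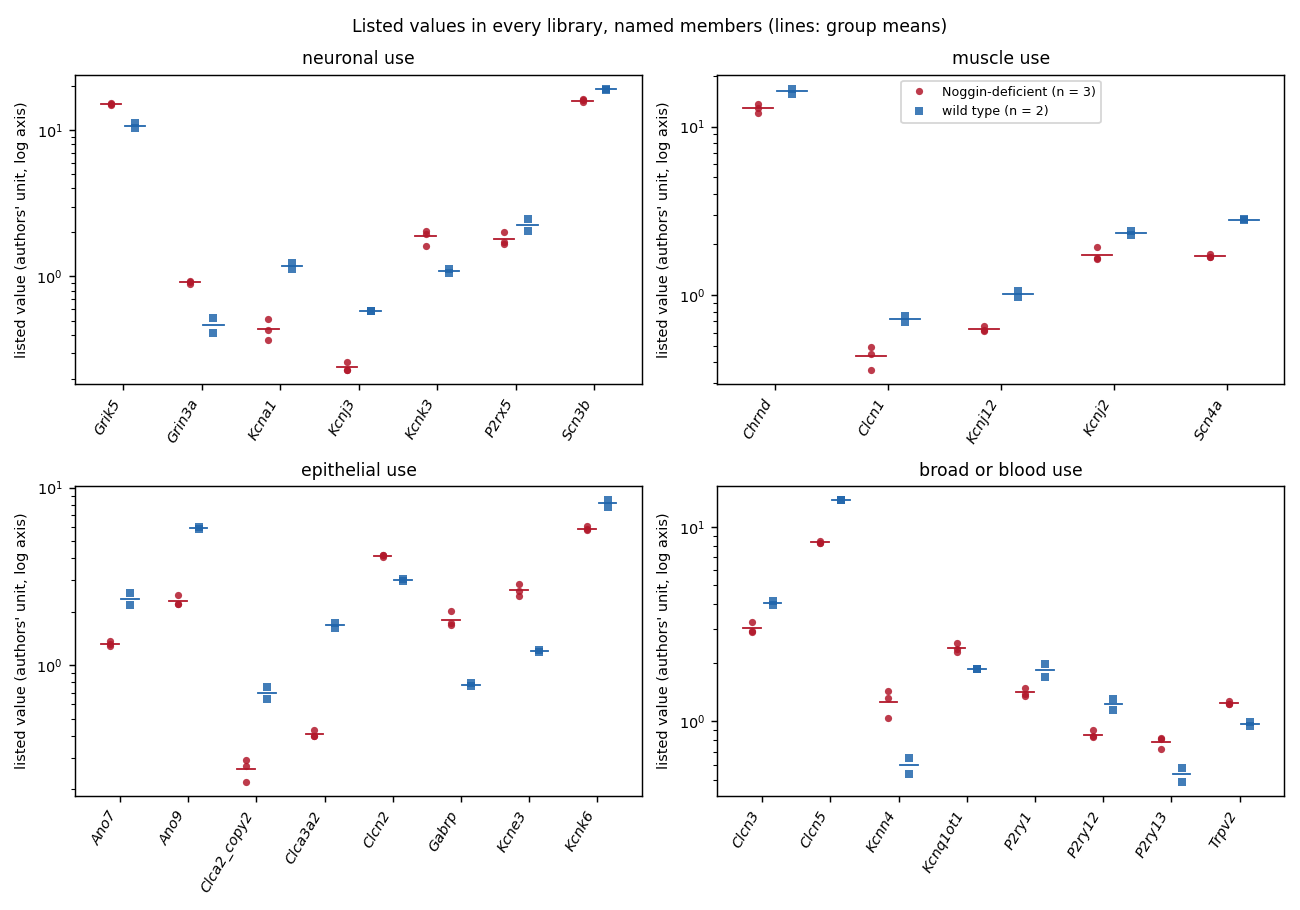
Listed values on a log axis in each Noggin-deficient (circles, n = 3) and wild type (squares, n = 2) library for 28 members named by rule, with lines at the group means. The libraries of each group lie close together. The groups do not overlap for any of these genes, as for 98.2% of all listed genes, and those of P2rx5 nearly touch.

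The 24 neuronal members below the minimum for testing had listed values of at most 0.53. Of these, 16 (66.7%) had a higher mean in the Noggin-deficient samples, against 58.8% of all 830 genes below the minimum. The groups did not overlap for 21 of the 24, against 93.1% of all genes below the minimum. These genes are named after their values were seen. Values this low rest on an unknown number of reads and were listed to 2 decimals.

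Ganglionic nicotinic receptor genes were listed higher, where the muscle subunit Chrnd was lower. Chrna3, the alpha subunit of the nicotinic receptor of autonomic ganglia, was listed at 0.2, 0.24 and 0.19 in the Noggin-deficient samples, against 0.01 and 0.01 in the wild type samples. Chrnb4, the beta subunit that joins it, was listed at 0.3, 0.24 and 0.22 in the Noggin-deficient samples, against 0.17 and 0.13 in the wild type samples. Chrnb2, a beta subunit of brain receptors, was listed at 0.24, 0.15 and 0.25 in the Noggin-deficient samples, against 0.14 and 0.13 in the wild type samples. None of these groups overlapped, although the lowest Noggin-deficient value of Chrnb2 lay just above the wild type values. Exons of Chrnb2 share bases with Adar on the opposite strand in the GENCODE annotation.

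Sensory and acid-sensing channels were among the same low genes. P2rx2, an ATP-gated channel of sensory and sympathetic neurons, was listed at 0.43, 0.53 and 0.3 in the Noggin-deficient samples, against 0.18 and 0.25 in the wild type samples. P2rx3, its partner in sensory neurons, whose exons share bases with Ssrp1, was listed at 0.31, 0.39 and 0.28 in the Noggin-deficient samples, against 0.17 and 0.21 in the wild type samples. The 3 acid-sensing members Asic1, Asic2 and Asic4 were each higher in every Noggin-deficient sample, with Asic4 at 0.31, 0.42 and 0.48 in Noggin-deficient samples, against 0.14 and 0.17 in wild type samples. Kcnk9, an acid-sensitive background channel related to Kcnk3, was listed at 0.12, 0.14 and 0.1 in the Noggin-deficient samples, against 0 in both wild type samples. All Noggin-deficient values of Kcnk9 were above the wild type ones.

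The low neuronal members with a lower mean in Noggin-deficient samples included channels known from glia. Kcnj10, the inward rectifier of glia, was listed at 0.19, 0.27 and 0.23 in the Noggin-deficient samples, against 0.4 and 0.32 in the wild type samples. Scn7a, a sodium channel also found in Schwann cells, was listed at 0.23, 0.18 and 0.2 in the Noggin-deficient samples, against 0.32 and 0.32 in the wild type samples. In both genes all Noggin-deficient values were below the wild type ones. Gabra2, a GABA-A receptor subunit, was listed at 0.37, 0.13 and 0.38 in the Noggin-deficient samples, against 0.46 and 0.49 in the wild type samples, with Noggin-deficient replicate 2 far below the other replicates. Kcng1, a modifier subunit of potassium channels, and Kcnn3, a calcium-activated potassium channel, were also lower in every Noggin-deficient sample. Gria2, Grin2b, Trpc4 and Trpv1, the capsaicin receptor of sensory neurons, were higher in every one. The groups overlapped for Gria4, Kcnb2 and Scn9a.

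Markers of nerve cells were higher in the Noggin-deficient samples. The tested neuronal channels went both ways, in shares near those of all genes tested. Of 16 neuron markers, 15 were listed and all 13 tested rose (median log2 change 1.65), against 37.9% of all genes tested. Snap25, Syt1, Elavl3, Elavl4 and Th reached the minimum for testing only through the Noggin-deficient samples, and Isl1 reached it in only 1 wild type library. The minimum favoured these rises, so they are no support for the direction, and the median rests in part on them. The summed values of the 15 ran from 57.9 to 60.7 in the Noggin-deficient and from 24 to 24.4 in the wild type samples. Elavl3 was at 0 in 1 wild type library, and none was at 0 in a Noggin-deficient library. Of 9 Schwann cell markers, 7 were listed, 2 (28.6%) rose and 5 (71.4%) fell (median -0.39), against 37.9% and 60.1% of all genes tested. Cdh19 reached the minimum for testing only through the wild type samples. The summed values of the 7 ran from 37.6 to 40.4 in the Noggin-deficient and from 48.2 to 48.4 in the wild type samples, and none was at 0. Their part in the values of the neuronal channels was not tested.

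**Figure D3:**
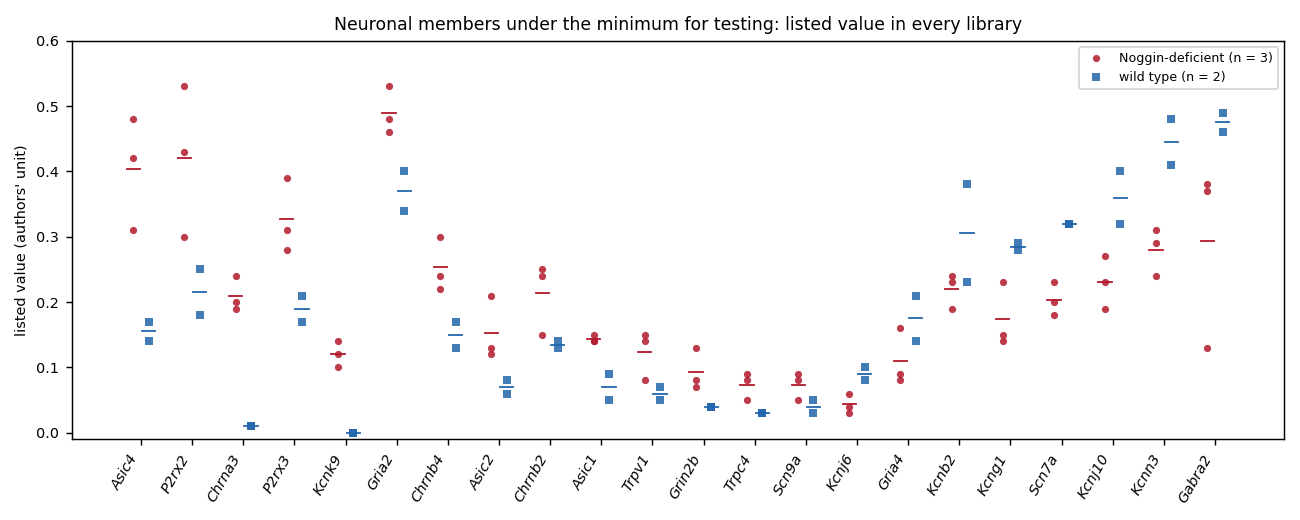
Listed values of 22 neuronal members below the minimum for testing in each Noggin-deficient (circles, n = 3) and wild type (squares, n = 2) library, ordered by the difference of the group means. The 14 genes on the left have the higher mean in Noggin-deficient samples, and Kcnk9 is at 0 in both wild type libraries.

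Of 12 epithelial members tested, 8 (66.7%) fell, near the 60.1% of all genes tested, 3 rose and Chrna9 was not called. Their median log2 change was -0.63, against -0.28 over all genes tested. It was -0.42 with median-of-ratios scaling and -0.50 with length adjusted for, and 7 were called lower and 3 higher under each. Of all genes, 32.5% were called lower and 38.0% higher with that scaling, and 38.4% and 39.0% with length adjusted for. Clca2_copy2 has no transcript length and drops out of the length adjustment. The Clca proteins are secreted or membrane-bound regulators of chloride currents and form no pore themselves. Clca3a2 was listed at 0.4, 0.4 and 0.43 in the Noggin-deficient samples, against 1.73 and 1.62 in the wild type samples, the largest change among the tested members on this scale (log2 change -1.54, SE 0.09, limma adjusted p = 3.8e-06). Clca2_copy2, as the files name it, was listed at 0.29, 0.27 and 0.22 in the Noggin-deficient samples, against 0.64 and 0.75 in the wild type samples (log2 change -0.89, SE 0.12, limma adjusted p = 0.00023). In both, the Noggin-deficient values lay under all wild type values, and only the wild type values reached the minimum for testing. Clca2 is an older symbol of more than 1 gene of this cluster, the sources used here do not say which gene the copy stands for, and reads of such related genes can be split between them.

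The anoctamins are a family of calcium-activated channels and lipid scramblases. Ano9 was listed at 2.21, 2.47 and 2.2 in the Noggin-deficient samples, against 5.97 and 5.86 in the wild type samples (log2 change -1.28, SE 0.065, limma adjusted p = 2e-06). Ano7 was listed at 1.28, 1.32 and 1.36 in the Noggin-deficient samples, against 2.18 and 2.54 in the wild type samples (log2 change -0.73, SE 0.084, limma adjusted p = 0.0001). Both genes were lower in every Noggin-deficient sample. Kcnk6, a background potassium channel, was listed at 5.73, 5.81 and 6.07 in the Noggin-deficient samples, against 8.46 and 7.81 in the wild type samples (log2 change -0.45, SE 0.05, limma adjusted p = 8.5e-05). Its change was -0.19 under median-of-ratios scaling and -0.27 with length adjusted for, and was still called. The related gene Kcnk7 changed by -0.72 and the inward rectifier Kcnj15 by -0.78, which was -0.49 with length adjusted for.

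P2ry4, a nucleotide receptor of epithelia that couples to G proteins and is not a channel, lay under the minimum for testing. It was listed at 0.02, 0.01 and 0.04 in the Noggin-deficient samples, against 0.46 and 0.36 in the wild type samples, and was named after its values were seen. Chrna9, a nicotinic subunit of hair cells and keratinocytes, was listed at 0.22, 0.5 and 0.39 in the Noggin-deficient samples, against 0.69 and 0.45 in the wild type samples. Its groups overlapped (limma adjusted p = 0.096).

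The 3 epithelial members that rose were Gabrp, Kcne3 and Clcn2. Gabrp, the pi subunit of GABA-A receptors found mainly outside the brain, was listed at 2.01, 1.68 and 1.72 in the Noggin-deficient samples, against 0.76 and 0.79 in the wild type samples (log2 change 1.0, SE 0.095, limma adjusted p = 3.9e-05). Kcne3, a small subunit that keeps the epithelial potassium channel Kcnq1 open, was listed at 2.46, 2.87 and 2.6 in the Noggin-deficient samples, against 1.19 and 1.21 in the wild type samples (log2 change 0.99, SE 0.08, limma adjusted p = 1.9e-05). These were the 2 members that rose and also passed the test against a 1.5-fold change (adjusted p = 0.012 and 0.0056), while Kcna1, Ano9, Clca3a2 and Clcn5 were the falls that did. Clcn2, a widely expressed chloride channel, was listed at 4.08, 4.16 and 4.18 in the Noggin-deficient samples, against 2.99 and 3.05 in the wild type samples (log2 change 0.42, SE 0.05, limma adjusted p = 0.00011). Clcn2 changed by 0.68 with median-of-ratios scaling. All Noggin-deficient values of these 3 genes were above the wild type ones. Exons of Clcn2 share bases with Polr2h and Fam131a on the opposite strand, and the sources used here do not say whether the counting used strand.

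Epidermal markers fell in the same samples. Of 14 on the list 13 were listed and all 13 fell (median log2 change -1.33), against 60.1% of all genes tested. Their summed values ran from 934 to 966 in the Noggin-deficient and from 2421 to 2456 in the wild type samples, and none was at 0. Their part in the values of the epithelial channels was not tested.

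Among the 8 tested broad or blood members, 4 (50%) rose and 4 (50%) fell, against 37.9% and 60.1% of all genes tested. Clcn5 and Clcn3 are chloride and proton exchangers of endosomes. Clcn5 was listed at 8.29, 8.21 and 8.49 in the Noggin-deficient samples, against 13.66 and 13.66 in the wild type samples (log2 change -0.70, SE 0.034, limma adjusted p = 1.7e-06). Clcn3 was listed at 3.26, 2.9 and 2.88 in the Noggin-deficient samples, against 3.95 and 4.15 in the wild type samples (log2 change -0.40, SE 0.069, limma adjusted p = 0.00085). The groups did not overlap for either gene. Kcna3, a potassium channel of lymphocytes, lay under the minimum for testing and was listed at 0.09, 0.07 and 0.07 in the Noggin-deficient samples, against 0.21 and 0.19 in the wild type samples. Clcn5 and Clcn3 have long transcripts, and with length adjusted for, the changes were -0.32 (adjusted p = 3.9e-05) for Clcn5 and -0.03 (adjusted p = 0.68) for Clcn3. Under median-of-ratios scaling Clcn5 changed by -0.43, and Clcn3 was not called (-0.14, adjusted p = 0.096).

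Kcnn4, the calcium-activated potassium channel of red cells and lymphocytes, was listed at 1.04, 1.32 and 1.43 in the Noggin-deficient samples, against 0.65 and 0.54 in the wild type samples (log2 change 0.83, SE 0.13, limma adjusted p = 0.00055). Trpv2, a cation channel of macrophages and other cells, was listed at 1.23, 1.23 and 1.28 in the Noggin-deficient samples, against 0.99 and 0.95 in the wild type samples (log2 change 0.29, SE 0.079, limma adjusted p = 0.0075). Both were higher in every Noggin-deficient sample, and Trpv2 changed by 0.51 under median-of-ratios scaling. Of 8 erythroid markers 4 were listed and all 4 rose, against 37.9% of all genes tested. Their summed values ran from 219 to 226 in the Noggin-deficient and from 94.6 to 99 in the wild type samples, and none was at 0. Of 10 platelet, myeloid and mast cell markers 5 were listed. Of these 2 (40%) rose and 3 (60%) fell, against 37.9% and 60.1% of all genes tested. Mpo reached the minimum for testing only through the Noggin-deficient samples. The summed values of the 5 ran from 247 to 251 in the Noggin-deficient and from 375 to 386 in the wild type samples, and none was at 0. Their part in the values of these members was not tested.

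The ADP receptors of the P2ry family act through G proteins and were included by name. P2ry12, the receptor of platelets and microglia, was listed at 0.9, 0.84 and 0.83 in the Noggin-deficient samples, against 1.15 and 1.31 in the wild type samples (log2 change -0.42, SE 0.091, limma adjusted p = 0.0028). P2ry13 was listed at 0.81, 0.72 and 0.82 in the Noggin-deficient samples, against 0.49 and 0.58 in the wild type samples (log2 change 0.40, SE 0.1, limma adjusted p = 0.0069). P2ry1 was listed at 1.49, 1.39 and 1.35 in the Noggin-deficient samples, against 1.7 and 1.98 in the wild type samples (log2 change -0.33, SE 0.088, limma adjusted p = 0.0075). No groups overlapped. Under median-of-ratios scaling P2ry12 and P2ry1 were no longer called (-0.20 and -0.09), leaving out wild type replicate 2 ended the call of P2ry1 (-0.23, adjusted p = 0.069), and leaving out wild type replicate 1 ended that of P2ry13 (0.31, adjusted p = 0.063).

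Kcnq1ot1 is a long noncoding RNA and no channel. It is transcribed from an intron of Kcnq1 on the opposite strand and silences neighbouring imprinted genes. It was listed at 2.27, 2.53 and 2.36 in the Noggin-deficient samples, against 1.85 and 1.85 in the wild type samples (log2 change 0.33, SE 0.07, limma adjusted p = 0.0026). Kcnq1 itself was not analysed here, and without knowing whether strand was used, reads from the 2 genes cannot be told apart. Its change was 0.57 under median-of-ratios scaling. With length adjusted for it was 0.92, a value that rests on an extreme transcript length of 93092 bases.

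**Figure D4:**
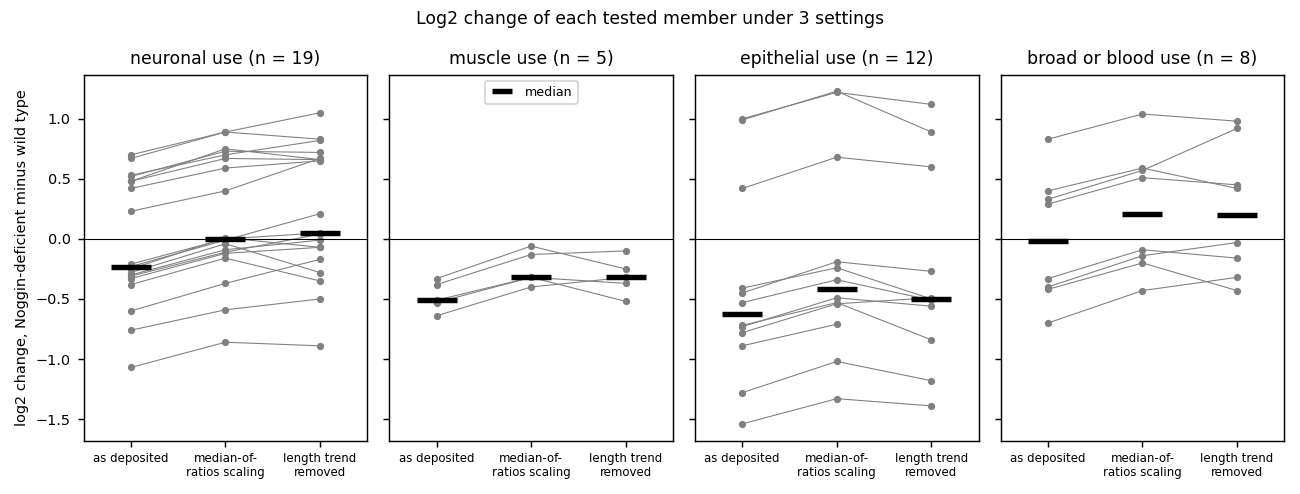
Log2 change of each tested member (grey lines) as deposited, with median-of-ratios scaling and with length adjusted for, split by known use, with the median of each setting as a black bar. The muscle and epithelial medians stay below 0 under the 3 settings, and the neuronal median goes from -0.23 as deposited to 0.05 with the length trend removed.

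Other genes of membrane excitability and calcium handling, outside the member families, were described from a list of families chosen by name, of which 50 genes were listed. Of 42 tested, 11 rose and 30 fell (median log2 change -0.40), and 1, Abcc8, was not called, against 37.9% higher, 60.1% lower and a median of -0.28 over all genes tested. Under median-of-ratios scaling 11 were called higher and 22 lower, against 38.0% and 32.5% of all genes. With length adjusted for, 13 were called higher and 21 lower, against 39.0% and 38.4%. The largest changes included those of Atp1b4 (-1.33), a muscle protein related to the beta subunits of the sodium pump, and Gjb5 (-1.05), a connexin of skin. Others were chosen after their values were seen. The log2 change was -0.66 for Atp2a1, the calcium pump of fast fibres, and -0.88 for Cacng1, a subunit of the muscle calcium channel. It was -0.50 for Ryr1, the calcium release channel, and -0.02 and not called with length adjusted for (adjusted p = 0.56). Musk, the receptor kinase that assembles the nicotinic receptor at the neuromuscular junction, had a log2 change of -0.56, against -0.33 for Chrnd. Cacng3, a neuronal relative of Cacng1, was under the minimum for testing and had means of 0.317 ± 0.0379 in the Noggin-deficient (SD, n = 3) and 0.005 ± 0.00707 in the wild type samples (SD, n = 2).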

How the data were processed

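Gene expression was measured by RNA sequencing in forelimb muscle of 3 Noggin-deficient and 2 wild type C57BL/6 mouse embryo samples, assigned to groups from the genotype label. The library kit was a stranded mRNA kit (KAPA), per the labels' protocols. The deposited values are a normalized expression signal, 1 value per gene and sample, of a unit and normalization that the sources used here do not give. Per the submitters' processing notes, the tools were DESeq2 and STAR 2.4.2a and the build was mm9, with no further detail. The deposited signal tables held the same 4743 genes, and 98.2% of them separated the groups, so the genes appear to have been chosen for a difference. Depth is unknown, and no counting interval could be given.

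The 3913 genes that reached 0.5 in 2 or more libraries entered limma (version 3.58.1, R 4.3.3; moderated test with an intensity trend on log2(value + 0.25), no covariate, Benjamini-Hochberg over all 3913). The method was checked on simulated data in which most genes did not change. Here 98.0% of the genes tested were called, so that check does not cover a list of this kind. Fold changes on this scale understate the change of low genes. Transcript lengths were the longest GENCODE M21 transcript per symbol, found for 94.1% of genes and 71 members. The members, use groups, marker lists and context list were chosen with earlier results of these data known. Values in every sample were given for Nog and for the tested members of each use group with the 5 largest changes and the 5 highest means, 29 members in all, some of which are not reported here by name. Other members were chosen after their values were seen. Alternatives were other pseudocounts, filters, scalings, a length correction, no intensity trend, a test against a 1.5-fold change, a replicate block and each library left out.

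In GENCODE M21, 26 of 71 matched members share exon bases with another gene, 7 of them with a protein-coding gene, so their values may hold reads of that gene.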

Additional observations from a re-analysis of the deposited data

How the results depend on the processing

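Under none of the 15 other settings was a member called in the direction opposite to its original call. Members called higher numbered 15, 28 when low values were not filtered out, 4 with the stricter filter and 2 against a 1.5-fold change. Members called lower numbered 27, then 11 with the stricter filter, 14 with median-of-ratios and 16 with upper-quartile scaling, 17 with length adjusted for and 4 against a 1.5-fold change. Fewer genes pass the stricter filter by construction. Of all genes, 38.0% were called higher and 32.5% lower under median-of-ratios scaling and 39.0% and 38.4% with length adjusted for. Upper-quartile scaling called 1488 of the 3913 genes higher and 1614 lower, and the test against a 1.5-fold change called 4.22% and 10.3%. The median log2 change of all tested genes shifted by 0.26 with median-of-ratios scaling, 0.19 with upper-quartile scaling and 0.13 after the length correction. With each library left out, 12 to 14 members were called higher and 16 to 25 lower, the lowest being without wild type replicate 1 (higher) and without wild type replicate 2 (lower). With a wild type library left out the remaining 1 is assumed to vary like the others. The replicate block gave 14 higher and 25 lower, and Kcnc1 and Scn8a were among the 3 that lost their calls. Shares over all genes are not given for the other filters, the block or the libraries left out. Those counts are thus no finding about the members. The labels do not say that replicate numbers pair the samples, and the differences between replicates 1 and 2 correlated at -0.11 between the groups. The median of the neuronal members turned to 0.21 with no filter and to 0.05 after the length correction. The median of the broad or blood members (-0.02) turned to 0.21 with median-of-ratios scaling, 0.15 with upper-quartile scaling and 0.19 with the length correction, and ran from -0.06 (without wild type replicate 1) to 0.02 (without wild type replicate 2) with a library left out. Scn3b turned to 0.01 under median-of-ratios scaling. The cause of these changes was not tested. The unknown depth limits what can be said of values under 0.5.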

Other observations

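Several members lie beside each other among the protein-coding genes of RefSeq's GRCm38.p6 list, with no other such gene between them. The group means of neighbours ran the same way for Chrna3 and Chrnb4 (higher in Noggin-deficient samples) and for Kcnj6 and Kcnj15 (lower). They ran opposite ways for P2ry13 and P2ry12, where P2ry13 was higher and P2ry12 lower in Noggin-deficient samples, and for Scn9a (higher mean, groups overlapping) and Scn7a (lower). Kcnj6 was listed at 0.03, 0.06 and 0.04 in the Noggin-deficient samples and at 0.08 and 0.1 in the wild type samples, under the minimum for testing. Exons of P2ry12 share bases with Med12l on the opposite strand.

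The Fxyd family, small partners of the sodium pump, had 4 tested genes. Of these, 3 (75%) rose and 1 (25%) fell, against 37.9% and 60.1% of all genes tested. Fxyd7, a brain member, averaged 4.12 ± 0.197 in the Noggin-deficient (SD, n = 3) and 2.35 ± 0.0778 in the wild type samples (SD, n = 2), and Fxyd3, of epithelia, had a log2 change of -0.41 that was -0.16 and not called under median-of-ratios scaling (adjusted p = 0.091). Among connexins, which form the channels between cells, 2 of 8 tested (25%) rose and 6 (75%) fell, against 37.9% and 60.1% of all genes tested. Under median-of-ratios scaling 2 were called higher and 4 lower, against 38.0% and 32.5% of all genes. The rises were those of Gja5 (0.62) and Gja4 (0.39), both of arterial endothelium. Of 8 endothelial markers only 2 were listed, Eng and Cldn5, and both rose in the same samples, against 37.9% of all genes tested. Their summed values ran from 91.3 to 93.7 in the Noggin-deficient and from 62.6 to 64.1 in the wild type samples. The part of these markers in the connexin values was not tested.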
